A study of Mus musculus with 8 samples.

Results

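The mitochondrial ribosomal protein genes are the nuclear genes whose symbols begin with Mrpl (large subunit) or Mrps (small subunit) followed by a number and at most 1 letter a, b or c. By this rule 77 of the 24421 genes in the count tables were members, 48 Mrpl and 29 Mrps. No measured value entered the rule, but earlier results of these data were known when it was chosen. RNA was sequenced from kidney ribosomes of mice that carried HoxB7-Cre together with Gt(ROSA)26Sor-mCherry-Rpl10a, an allele that puts an mCherry tag on a cytoplasmic ribosomal protein of Cre-expressing cells so that their ribosomes can be pulled down with the mRNA they hold (RiboTRAP). Both alleles were present in every group. The mice were males of 10 to 16 weeks on a C57BL/6 background. In the IRI (ischemia-reperfusion injury) group of 4 mice the renal artery was clamped for 30 min, and in the sham group of 4 mice the same surgery was made without clamping. Kidneys were taken 9 h later, and each mouse gave 1 library. HoxB7-Cre marks cells by their descent from the mesonephric duct, which includes the collecting duct and the ureter, so the tag marks a lineage and not 1 cell type.

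Mitochondria keep a ribosome of their own, of bacterial ancestry, which makes the few respiratory chain subunits still encoded by mitochondrial DNA. Its ribosomal RNAs come from mitochondrial DNA, but all of its proteins are encoded in the nucleus, translated on cytoplasmic ribosomes and imported. Many have a counterpart in the bacterial ribosome, and the others were gained in the mitochondrial lineage. The measurements below are therefore of the nuclear mRNAs held by cytoplasmic ribosomes and not of the mitochondrial ribosome itself. Collecting duct cells, and intercalated cells above all, are rich in mitochondria.

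Library depth, as counts in genes, was 13518005 to 27496808 in the IRI libraries and 25210299 to 29285812 in the sham libraries. Large subunit genes took 0.129% to 0.143% of these counts after IRI and 0.152% to 0.183% in sham. Small subunit genes took 0.0600% to 0.0682% after IRI and 0.0761% to 0.0909% in sham. These shares did not overlap between the groups, but they are shares of total counts and move with every abundant gene. All values below are CPM, counts divided by library size, with library sizes scaled by TMM to lessen such shifts, with means ± SD of the 4 mice in a group (n = 4). Markers of principal cells fell in 10 of 10 genes (summed level 1935 to 3780 CPM after IRI, 11969 to 15744 CPM in sham) and markers of intercalated cells in 11 of 11 (1205 to 1840 CPM after IRI, 4033 to 4941 CPM in sham). Markers of the proximal tubule, which lies outside the lineage, were higher in 9 of 13 genes and lower in 0 (10066 to 18235 CPM after IRI, 6412 to 9449 CPM in sham), and none of these markers was at 0 in all libraries. The libraries thus also held RNA of genes that mark cells outside the lineage, in sham as well as after IRI. Member values may include RNA from such cells, and its part was not tested. Neutrophil markers were higher in 5 of 5 genes (46.2 to 126 CPM against 2.19 to 4.66 CPM), endothelial markers in 4 of 7, macrophage markers in 2 of 7, fibroblast and pericyte markers in 1 of 7 and thick limb markers in 2 of 5, with 0 lower in each of these lists. Fewer cells of a type and less RNA per cell cannot be told apart in these bulk samples, and the part of these marker shifts in the results below was not tested.

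Of the 77 members, 76 were measured deeply enough to be tested. Mrpl23 was left out by the filter on low counts, with 2 to 6 counts per library after IRI and 10 to 14 in sham, and the annotation lists a pseudogene named for it. The large subunit genes showed 9 lower and 3 higher members after IRI among 47 tested, and the small subunit genes 10 lower and 1 higher among 29 (edgeR's quasi-likelihood test, Benjamini-Hochberg adjusted p below 0.01 over all tested genes). Among all 14606 tested genes 24.6% were lower and 25.1% were higher by the same test, or 49.7% in either direction. Lower members thus made up 19.1% of large and 34.5% of small subunit genes, and higher members made up 6.38% and 3.45%. The higher shares lay below those of all tested genes in each of 18 alternatives. The lower shares did not keep one place beside those of all tested genes. That of the large subunit was the smaller here but the larger with total counts (44.7% against 33.6%), upper quartile factors (42.6% against 30.1%), DESeq2 (31.9% against 27.3%) and a threshold of 0.05 (40.4% against 31.7%). That of the small subunit was the larger here but the smaller with the replicate number as a block (17.2% against 18.6%) and with a covariate for the 2 series of animal numbers in the submitters' sample names (20.7% against 20.8%). The 2 series were split unevenly between IRI and sham. These shares describe the members, and no test of either list was made. The median log2 fold change was -0.08 over the large subunit genes and -0.16 over the small subunit genes, beside -0.01 over all tested genes. The values lay below 0 in 33 of 47 and in 19 of 29 members, against 50.5% of all tested genes. IRI replicate 2 had the fewest counts and a fibroblast and pericyte marker sum of 1612 CPM, the highest of the 8 libraries. Without it, 8 of 48 large (16.7%) and 10 of 29 small subunit genes (34.5%) were lower, and 3 and 1 were higher (6.25% and 3.45%). In that fit 22.1% of all tested genes were lower and 23.1% were higher.

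**Figure D1:**
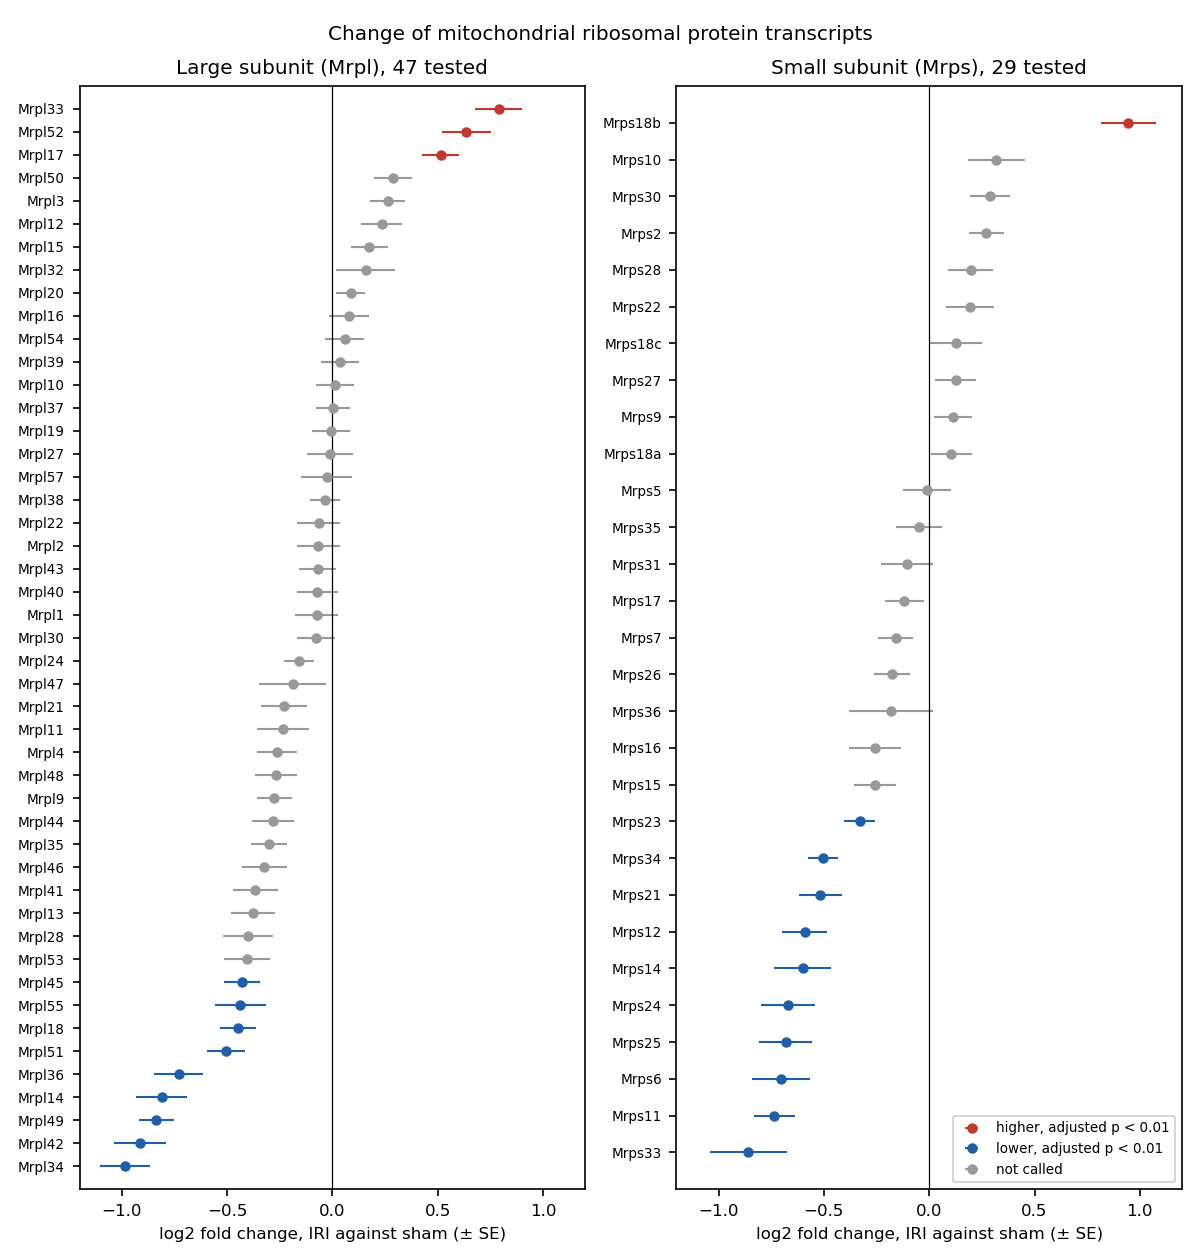
Log2 fold change of each tested member, IRI against sham, with its standard error from limma-voom as a bar, for the 47 large subunit genes (left) and the 29 small subunit genes (right), ordered by value. Blue points were lower and red points higher at an edgeR adjusted p below 0.01, and grey points were not called. Most points lie between -0.5 and 0.5, with 9 blue and 3 red points on the left and 10 blue and 1 red on the right.

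The changes were modest, and the 53 tested members that were not called had log2 fold changes of -0.40 to 0.29 in the large and -0.26 to 0.32 in the small subunit. None of the 23 called members differed by as much as 2-fold, while 49.3% of all called genes did. The median size of the log2 fold change was 0.67 over called members and 0.99 over all called genes. Replicates lay close together, with a median coefficient of variation of 9.57% after IRI and 8.98% in sham over the 76 tested members (14.7% and 10.6% over all tested genes). Every IRI library lay below every sham library in 20 large and 10 small subunit genes and above in 4 and 3, beside 29.8% below and 28.8% above among all tested genes. The summed level of the 48 large subunit genes was 1545, 1358, 1432 and 1441 CPM in IRI replicates 1 to 4 and 1458, 1702, 1513 and 1637 CPM in sham replicates 1 to 4. These sums overlapped, since IRI replicate 1 lay above 2 of the sham libraries. The 29 small subunit genes summed to 735, 632, 674 and 694 CPM after IRI and 729.6, 843, 802 and 807 CPM in sham, where IRI replicate 1 lay just above sham replicate 1 and the other libraries did not overlap.

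Promoter sequences are shown here for members that rose and members that fell, since proteins of the same complex differed in direction. Windows run from 250 bases before to 50 bases after each RefSeq start, on build GRCm38.p6, and 74 windows of 68 members were at hand. They were searched on both strands for CGCATGCG, the core of the motif of NRF1, for CCGGAAGT, a motif of ETS factors such as GABP, and for AAGATGGCG, a motif of YY1. The first reads the same on both strands, and none of the 3 contains another. All are known from promoters of nuclear genes for mitochondrial proteins. At least 1 motif stood in 35.1% of member windows and in 6.79% of all 32851 windows in the table. The NRF1 core stood in 9.46% of member windows and 1.87% of all, the ETS motif in 16.2% and 3.89%, and the YY1 motif in 10.8% and 1.40%. The windows of the table cover 27025 genes and were not matched to the members for expression or base composition. Each motif contains the letters CG, and the part of base composition in these shares was not tested. A match describes letters and is not a binding site. All 4 members that rose had a motif in their window, the NRF1 core in Mrpl17 and Mrps18b and the ETS motif in Mrpl33 and Mrpl52. Of 18 windows of members that fell, 33.3% held at least 1 of the motifs. The NRF1 core stood in 0 of them, the ETS motif in 2 and the YY1 motif in 4. Of 51 windows of members that were not called, 31.4% held at least 1 of the motifs. The 4 windows of members that rose are printed 5′ to 3′ along the gene, with the motif in capitals on whichever strand it was read. They are Mrpl17 at chr7:105811038-105811337 (minus strand), Mrpl33 at chr5:31613701-31614000 (plus strand), Mrpl52 at chr14:54426659-54426958 (plus strand) and Mrps18b at chr17:35916391-35916690 (minus strand).
Mrpl17: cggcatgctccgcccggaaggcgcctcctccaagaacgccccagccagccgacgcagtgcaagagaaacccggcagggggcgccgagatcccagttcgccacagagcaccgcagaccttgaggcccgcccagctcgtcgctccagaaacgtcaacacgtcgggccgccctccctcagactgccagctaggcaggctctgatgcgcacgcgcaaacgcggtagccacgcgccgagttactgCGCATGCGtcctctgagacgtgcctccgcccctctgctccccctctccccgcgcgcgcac
Mrpl33: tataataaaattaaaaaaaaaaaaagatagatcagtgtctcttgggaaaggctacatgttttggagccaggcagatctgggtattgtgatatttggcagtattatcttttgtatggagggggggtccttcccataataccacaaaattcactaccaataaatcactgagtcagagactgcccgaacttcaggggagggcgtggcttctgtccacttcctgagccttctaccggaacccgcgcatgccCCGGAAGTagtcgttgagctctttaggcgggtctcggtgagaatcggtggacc
Mrpl52: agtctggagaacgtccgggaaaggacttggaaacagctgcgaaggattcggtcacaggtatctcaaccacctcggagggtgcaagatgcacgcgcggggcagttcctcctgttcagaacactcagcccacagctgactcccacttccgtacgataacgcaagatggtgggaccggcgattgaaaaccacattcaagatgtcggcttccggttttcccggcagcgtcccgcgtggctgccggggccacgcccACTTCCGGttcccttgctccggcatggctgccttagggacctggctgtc
Mrps18b: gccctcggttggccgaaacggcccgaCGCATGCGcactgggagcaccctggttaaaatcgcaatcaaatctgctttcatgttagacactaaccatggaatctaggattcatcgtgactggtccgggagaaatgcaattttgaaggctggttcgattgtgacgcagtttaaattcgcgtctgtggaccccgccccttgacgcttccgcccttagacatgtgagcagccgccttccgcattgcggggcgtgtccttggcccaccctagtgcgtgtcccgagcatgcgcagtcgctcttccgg

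For comparison, windows are shown of the members with the largest fall in each subunit, Mrpl34 at chr8:71464676-71464975 (plus strand) and Mrps33 at chr6:39810887-39811186 (minus strand), neither of which held a searched motif, and of Mrpl42 at chr10:95501900-95502199 (minus strand), which held the YY1 motif in capitals close to its start. Mrps11 at chr7:78782881-78783180 (plus strand) held the YY1 motif on the opposite strand, and its window shares 141 bases with that of Mrpl46, a large subunit gene read in the other direction from a RefSeq start 42 bases away. That pair moved unequally in size, by -0.74 for Mrps11 and -0.32 for Mrpl46 on the log2 scale, and Mrpl46 was not called (edgeR adjusted p = 0.0232).
Mrpl34: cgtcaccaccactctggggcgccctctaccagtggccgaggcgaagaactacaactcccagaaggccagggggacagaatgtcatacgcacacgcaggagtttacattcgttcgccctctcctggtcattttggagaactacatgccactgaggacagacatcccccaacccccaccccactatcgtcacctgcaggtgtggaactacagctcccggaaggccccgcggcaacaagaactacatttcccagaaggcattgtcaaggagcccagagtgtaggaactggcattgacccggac
Mrps33: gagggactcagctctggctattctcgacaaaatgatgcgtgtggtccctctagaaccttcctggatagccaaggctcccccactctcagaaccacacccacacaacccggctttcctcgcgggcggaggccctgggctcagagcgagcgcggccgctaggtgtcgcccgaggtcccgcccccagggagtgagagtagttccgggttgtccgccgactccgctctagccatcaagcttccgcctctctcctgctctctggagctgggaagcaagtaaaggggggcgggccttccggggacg
Mrpl42: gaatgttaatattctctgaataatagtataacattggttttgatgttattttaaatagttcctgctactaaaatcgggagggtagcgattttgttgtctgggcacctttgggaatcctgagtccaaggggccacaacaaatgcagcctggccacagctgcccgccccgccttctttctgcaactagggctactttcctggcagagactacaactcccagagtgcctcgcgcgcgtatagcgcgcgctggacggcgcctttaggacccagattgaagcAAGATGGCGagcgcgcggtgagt
Mrps11: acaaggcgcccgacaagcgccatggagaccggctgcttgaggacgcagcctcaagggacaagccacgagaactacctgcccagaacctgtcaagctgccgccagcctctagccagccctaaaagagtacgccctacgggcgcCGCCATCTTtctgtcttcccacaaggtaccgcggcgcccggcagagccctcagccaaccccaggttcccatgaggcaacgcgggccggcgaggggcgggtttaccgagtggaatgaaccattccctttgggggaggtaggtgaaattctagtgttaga

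The large subunit carries the centre where peptide bonds form and the tunnel through which the new protein leaves. Its largest fall was in Mrpl34, one of the smallest proteins of the subunit, with a bacterial counterpart (chromosome 8, 71464959 to 71465747, 1 of the windows without a searched motif). Mrpl34 stood at 17.8, 14.2, 18.6 and 17.0 CPM in IRI replicates 1 to 4 and 33.4, 36.8, 28.6 and 35.3 CPM in sham replicates 1 to 4. Every IRI library was below the lowest sham library, and the mean fell from 33.5 ± 3.57 CPM to 16.9 ± 1.94 CPM (log2 fold change -0.98, SE 0.12, edgeR adjusted p = 7.61e-05). Mrpl42, a protein with no bacterial counterpart (chromosome 10, 95480805 to 95501940), stood at 24.5, 20.0, 26.7 and 22.9 CPM in IRI replicates 1 to 4 and 36.7, 50.4, 44.6 and 45.5 CPM in sham replicates 1 to 4. Again the groups were apart, and Mrpl42 fell to 53.1% of sham (log2 fold change -0.91, SE 0.12, edgeR adjusted p = 0.000160). It had the highest level per kilobase of transcript of the large subunit genes in sham, 66.5 ± 8.49 CPM per kb.

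Mrpl49, also particular to mitochondria (chromosome 19, 6053622 to 6057785), stood at 25.3, 25.9, 25.7 and 24.8 CPM in IRI replicates 1 to 4 and 41.8, 51.3, 44.5 and 43.9 CPM in sham replicates 1 to 4. The IRI libraries lay close together and below all sham libraries (log2 fold change -0.84, SE 0.08, edgeR adjusted p = 2.61e-05). Its start lies 59 bases from that of Fau, which encodes a cytoplasmic ribosomal protein fused to a ubiquitin-like protein and runs the other way. Fau had a log2 fold change of 0.73 (SE 0.20, edgeR adjusted p = 0.0105). Mrpl14, the counterpart of a bacterial protein at the face that meets the small subunit (chromosome 17, 45686322 to 45698495), stood at 8.82, 8.26, 8.78 and 9.10 CPM in IRI replicates 1 to 4 and 13.0, 15.6, 17.5 and 15.4 CPM in sham replicates 1 to 4. All IRI values were under 10 CPM and all sham values above it (log2 fold change -0.81, SE 0.12, edgeR adjusted p = 0.000220). Of the exons of Mrpl14, 11.2% overlap Tmem63b on the other strand, whose own log2 fold change was -0.05 (edgeR adjusted p = 0.685).

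The other large subunit genes that fell were Mrpl36, Mrpl51, Mrpl18, Mrpl55 and Mrpl45, by 0.73, 0.50, 0.45, 0.44 and 0.43 on the log2 scale. Mrpl45, which in human mitochondria helps hold the ribosome at the inner membrane near the tunnel exit, fell to 74.3% of sham (edgeR adjusted p = 0.00151). Mrpl18, the counterpart of a bacterial protein that binds 5S ribosomal RNA, fell to 73.3% (edgeR adjusted p = 0.0019). The call of Mrpl55 (edgeR adjusted p = 0.00971) was the nearest to the threshold among called members. It was lost when any 1 library other than sham replicate 1 was left out, with edgeR adjusted p of 0.011 to 0.0273. Just outside lay Mrpl13, Mrpl53, Mrpl41, Mrpl35 and Mrpl9, with edgeR adjusted p of 0.0108 to 0.0126 and log2 fold changes of -0.28 to -0.40. At a threshold of 0.05, 19 large subunit genes were lower and 5 higher, beside 31.7% and 31.8% of all tested genes.

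The 3 large subunit genes that rose were Mrpl33, Mrpl52 and Mrpl17. Mrpl33, a very small protein with a bacterial counterpart (chromosome 5, 31596935 to 31664384), stood at 45.5, 32.9, 34.4 and 40.0 CPM in IRI replicates 1 to 4 and 21.8, 22.6, 20.7 and 23.5 CPM in sham replicates 1 to 4. The lowest IRI library was above the highest sham library, and the mean rose from 22.1 ± 1.21 CPM to 38.2 ± 5.74 CPM (log2 fold change 0.79, SE 0.11, edgeR adjusted p = 0.000246). Mrpl52, particular to mitochondria (chromosome 14, 54426909 to 54429756), stood at 40.6, 29.9, 29.3 and 35.8 CPM in IRI replicates 1 to 4 and 20.4, 23.4, 21.2 and 22.5 CPM in sham replicates 1 to 4. IRI replicates 1 and 4 were the highest in Mrpl33 and in Mrpl52, and Mrpl52 rose to 155% of sham (log2 fold change 0.64, SE 0.12, edgeR adjusted p = 0.00115). Mrpl17, the counterpart of a bacterial protein near the tunnel exit (chromosome 7, 105803206 to 105811099), stood at 53.1, 48.0, 49.1 and 53.7 CPM in IRI replicates 1 to 4 and 30.9, 38.5, 35.6 and 37.7 CPM in sham replicates 1 to 4. Its groups were apart too (log2 fold change 0.51, SE 0.09, edgeR adjusted p = 0.000716), but with total counts in place of TMM its log2 fold change was 0.32 and the call was lost (edgeR adjusted p = 0.0121).

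**Figure D2:**
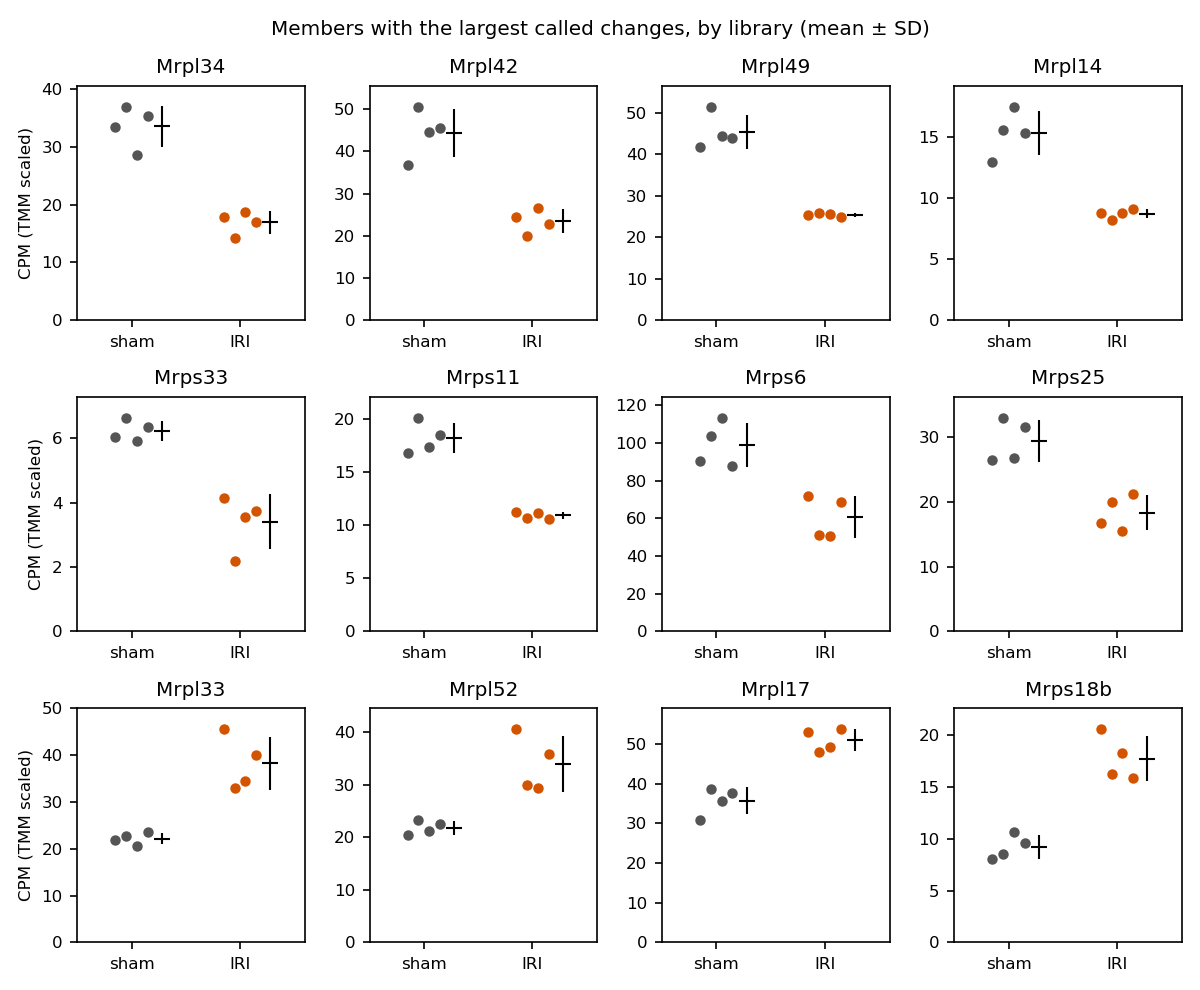
TMM-scaled CPM in each library (grey points, 4 sham libraries; orange points, 4 IRI libraries) for the members with the largest called changes, each panel from 0 CPM, with mean ± SD to the right of the points. The 8 panels of members that fell show all IRI points below the sham points, and the 4 panels Mrpl33, Mrpl52, Mrpl17 and Mrps18b show all IRI points above them.

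The small subunit reads the codons of the mitochondrial mRNA. Mrps33, a protein particular to mitochondria (chromosome 6, 39801804 to 39810988), had the largest fall and was among the rarest members. Mrps33 stood at 4.15, 2.18, 3.55 and 3.75 CPM in IRI replicates 1 to 4 and 6.05, 6.62, 5.92 and 6.36 CPM in sham replicates 1 to 4. IRI replicate 2 was the lowest, and the groups did not overlap (log2 fold change -0.86, SE 0.18, edgeR adjusted p = 0.00385). The call was lost without IRI replicate 3, sham replicate 2 or sham replicate 4, at edgeR adjusted p of 0.0101, 0.0113 and 0.0108. Mrps11, the counterpart of a bacterial protein of the platform next to the exit site for tRNA (chromosome 7, 78783119 to 78792989), stood at 11.2, 10.7, 11.2 and 10.6 CPM in IRI replicates 1 to 4 and 16.8, 20.1, 17.4 and 18.5 CPM in sham replicates 1 to 4. The spread within the IRI group was small and Mrps11 fell to 60.1% of sham (log2 fold change -0.74, SE 0.10, edgeR adjusted p = 0.000116).

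Mrps6 was by far the highest member per kilobase in sham, at 116.7 ± 13.8 CPM per kb (chromosome 16, 92058270 to 92112227). It stood at 71.6, 51.3, 50.5 and 68.8 CPM in IRI replicates 1 to 4 and 90.4, 103, 113 and 88.0 CPM in sham replicates 1 to 4. IRI replicates 1 and 4 were the highest after injury and still below all sham libraries, and the fold was 1.63 (log2 fold change -0.70, SE 0.14, edgeR adjusted p = 0.00172). Mrps6 shares its locus with Slc5a3, the myo-inositol transporter that collecting duct cells use to balance high salt, which had a log2 fold change of -0.42 (SE 0.15, edgeR adjusted p = 0.0385) and 1122 ± 214 CPM in sham. Of the exons of Mrps6, 19.9% overlap Gm49711, which runs the same way, in the annotation used here. How reads in shared exons were counted is not stated in the labels or methods, and the level of Mrps6 is uncertain. Mrps25, particular to mitochondria (chromosome 6, 92169525 to 92184033), stood at 16.7, 20.0, 15.4 and 21.1 CPM in IRI replicates 1 to 4 and 26.4, 32.8, 26.7 and 31.5 CPM in sham replicates 1 to 4. No IRI library reached the sham range (log2 fold change -0.68, SE 0.13, edgeR adjusted p = 0.00126). However, 69.8% of its exons overlap Nr2c2 on the other strand, which had a log2 fold change of -0.12 (edgeR adjusted p = 0.157), and reads of the pair cannot be told apart without the strand.

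The other small subunit genes that fell were Mrps24, Mrps14, Mrps12, Mrps21, Mrps34 and Mrps23, by 0.67, 0.60, 0.59, 0.52, 0.50 and 0.33 on the log2 scale. Mrps12, the counterpart of the bacterial protein at the decoding centre, fell to 66.4% of sham (edgeR adjusted p = 0.00105). Mrps34, known from human disease as a protein whose loss lowers the small subunit, fell to 70.5% (edgeR adjusted p = 0.00027), but 77.8% of its exons overlap Mapk8ip3 and Nme3, which had log2 fold changes of 0.30 and -1.10. Mrps21 was the member next to Mrps6 in level, 68.9 ± 5.99 CPM per kb in sham. Mrps21 stood at 25.4, 20.9, 25.6 and 22.0 CPM in IRI replicates 1 to 4 and 29.5, 36.1, 35.3 and 33.6 CPM in sham replicates 1 to 4, with no overlap between the groups (log2 fold change -0.52, SE 0.10, edgeR adjusted p = 0.00169). The calls of Mrps14 and Mrps23 depended on single libraries. Mrps14 was not called without IRI replicate 3, IRI replicate 4 or sham replicate 2 (edgeR adjusted p of 0.0131, 0.0107 and 0.012), nor Mrps23 without IRI replicate 3 or sham replicate 2 (0.0112 and 0.0104).

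Only 1 small subunit gene rose, Mrps18b, and it had the largest rise of all members. It is 1 of 3 nuclear genes that descend from the gene for a single bacterial protein. In the human mitochondrial ribosome the products of MRPS18B and MRPS18C sit in the small subunit, while that of MRPS18A sits in the large subunit despite its name. Mrps18b stood at 20.5, 16.2, 18.3 and 15.9 CPM in IRI replicates 1 to 4 and 8.03, 8.57, 10.6 and 9.61 CPM in sham replicates 1 to 4. The IRI and sham libraries were far apart, with a rise from 9.20 ± 1.15 CPM to 17.7 ± 2.15 CPM (log2 fold change 0.95, SE 0.13, edgeR adjusted p = 0.000195). Mrps18a stood at 44.2, 38.3, 41.5 and 44.4 CPM in IRI replicates 1 to 4 and 33.2, 42.9, 41.4 and 39.4 CPM in sham replicates 1 to 4. Its groups overlapped (log2 fold change 0.10, SE 0.10, edgeR adjusted p = 0.372). Mrps18c stood at 18.0, 13.8, 16.3 and 19.0 CPM in IRI replicates 1 to 4 and 13.6, 17.2, 14.4 and 16.3 CPM in sham replicates 1 to 4, again with overlap (log2 fold change 0.13, SE 0.12, edgeR adjusted p = 0.398), and both values fall below 0 when total counts are used. Whether the change of Mrps18b differed from those of Mrps18a and Mrps18c was not tested. Of the exons of Mrps18b (chromosome 17, 35910379 to 35916389), 30.5% overlap the antisense gene Gm16279. Ppp1r10, a neighbour of Mrps18b that runs the other way, starts 45 bases away in the GENCODE annotation. Its log2 fold change was -0.25 (edgeR adjusted p = 0.0671). The Mrps18b window printed above, chr17:35916391-35916690, was set by the RefSeq start and lies outside the GENCODE bounds of the gene.

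**Figure D3:**
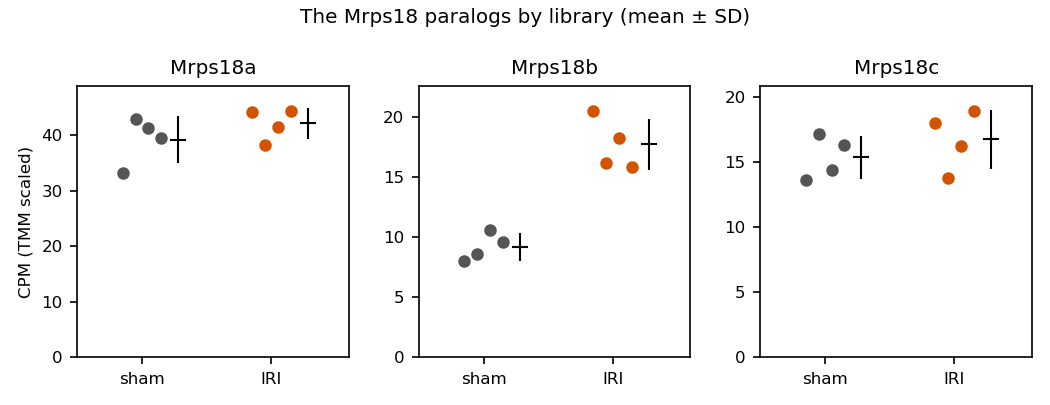
TMM-scaled CPM of Mrps18a, Mrps18b and Mrps18c in each library (grey points, 4 sham; orange points, 4 IRI), each panel from 0 CPM, with mean ± SD to the right of the points. The IRI points of Mrps18b (15.9 to 20.5 CPM) lie above all its sham points (8.03 to 10.6 CPM), and the groups overlap in Mrps18a and Mrps18c.

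The symbols of Mrps30 and Mrps36 do not match the place of the protein. The product of Mrps30 belongs to the large subunit in the structure of the ribosome, and that of Mrps36 has been found as part of the oxoglutarate dehydrogenase complex. Mrps30 stood at 32.9, 27.3, 35.7 and 29.9 CPM in IRI replicates 1 to 4 and 23.6, 26.9, 25.8 and 26.8 CPM in sham replicates 1 to 4. All IRI libraries were above all sham libraries, yet Mrps30 was not called (log2 fold change 0.29, SE 0.09, edgeR adjusted p = 0.0282). Mrps36, the rarest tested member, stood at 2.23, 1.79, 1.93 and 1.61 CPM in IRI replicates 1 to 4 and 2.09, 1.77, 2.12 and 2.62 CPM in sham replicates 1 to 4 (log2 fold change -0.18, SE 0.20, edgeR adjusted p = 0.457), and the annotation lists 3 pseudogenes named for it. With Mrps18a and Mrps30 counted in the large subunit and Mrps36 left out, 9 of 49 large subunit genes were lower and 3 higher, and 10 of 26 small subunit genes were lower and 1 higher. Lower genes thus made up 18.4% and 38.5%, beside 24.6% of all tested genes. Higher genes made up 6.12% and 3.85%, beside 25.1%.

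Members that fell and members that rose were found among proteins named for a bacterial counterpart and among the others. Grouped by their place in the structure, large subunit proteins with a bacterial counterpart counted 5 lower and 2 higher of 29 tested (median log2 fold change -0.08), and those that the ribosomal protein nomenclature names as mitochondrial only 4 lower and 1 higher of 20 (-0.07). In the small subunit these counts were 6 lower and 0 higher of 16 (-0.21) and 4 lower and 1 higher of 10 (-0.14). Lower genes made up 17.2%, 20%, 37.5% and 40% of these classes in turn, beside 24.6% of all tested genes. Higher genes made up 6.90%, 5%, 0% and 10%, beside 25.1%. No test of the classes was made. The nomenclature counts Mrps18a and Mrps18b as mitochondrial only although both descend from a bacterial gene, and Mrps18b is the 1 higher of the 10. The members that were most abundant per kilobase behaved unlike each other. After Mrpl42, the highest levels in sham were those of Mrpl54, 66.1 ± 6.41 CPM per kb, and Mrpl20, 56.9 ± 2.41 CPM per kb. Mrpl42 and Mrpl54 did not differ beyond their spread in sham. Mrpl54 stood at 46.1, 41.5, 39.2 and 39.5 CPM in IRI replicates 1 to 4 and 35.7, 39.6, 39.4 and 45.1 CPM in sham replicates 1 to 4 (log2 fold change 0.06, SE 0.09, edgeR adjusted p = 0.602). Mrpl20 stood at 48.9, 44.6, 45.0 and 46.0 CPM in IRI replicates 1 to 4 and 41.4, 45.3, 42.4 and 44.6 CPM in sham replicates 1 to 4 (log2 fold change 0.09, SE 0.07, edgeR adjusted p = 0.283). The groups overlapped in both, while Mrpl42 fell. Levels per kilobase depend on the length of the annotated principal transcript, which was 604 bases for Mrpl54 and 7300 for Mrpl17, and are uncertain where a long untranslated end is little used.

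Large subunit genes spanned 3.39 to 66.5 CPM per kb in sham, with quartiles of 15.2 and 33.8, and small subunit genes 3.07 to 116.7 CPM per kb, with quartiles of 7.77 and 29.0. Across the 76 tested members, which share these libraries, Spearman's rho of the log2 fold change was 0.15 with transcript length, -0.22 with GC content and -0.20 with the CPM in sham. Over all tested genes rho was 0.02, -0.01 and -0.10. The sham counts also enter the fold change, so its rho with the CPM in sham is not one of independent values. Members that fell had a median transcript length of 995 bases, members not called one of 1418 and the 4 that rose one of 778.5. The median over all tested genes was 2996 bases. Subtracting the trend over length and GC content of all tested genes moved the medians to -0.17 for large and -0.25 for small subunit genes, and that of all tested genes to -0.10, a shift of -0.09 that the members shared.

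Some members start close to the start of a gene that runs the other way. Of the tested members, 29 had a tested protein-coding neighbour in the opposite direction whose start lay within 1000 bases, with Mrps11 and Mrpl46 as partners of each other. In some pairs, such as Mrpl18 and Tcp1, the genes overlap at their starts, and their counts are uncertain without the strand. Among the 8 that fell, 3 had a partner that fell, 1 had a partner that rose and 4 had a partner that was not called. Among the 20 that were not called, 9 had a partner that fell and 2 one that rose, beside 24.6% lower and 25.1% higher over all tested genes. The 3 were Mrpl36 beside Ndufs6, a subunit of complex I (-0.73 and -0.33), Mrpl51 beside Ncapd2, a condensin subunit (-0.50 and -1.52), and Mrps34 beside Eme2 (-0.50 and -0.60). Mrpl18 lay beside Tcp1, a subunit of the cytosolic chaperonin, and the pair moved apart, with log2 fold changes of -0.45 and 0.62 (edgeR adjusted p = 0.0019 and 0.000113).

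Another 6 mitochondrial ribosomal proteins have symbols outside the rule. Of these, Dap3, a GTP-binding protein of the small subunit, fell from 57.5 ± 3.37 to 44.6 ± 3.74 CPM (log2 fold change -0.37, SE 0.08, edgeR adjusted p = 0.0032), and Ptcd3, Aurkaip1, Chchd1, Gadd45gip1 and Ict1 were not called, at -0.29 to 0.07. Of 24 tested genes for assembly of the ribosome and modification of its RNA, 7 were lower and 0 higher (median -0.28). Lower genes made up 29.2% of that list, beside 24.6% of all tested genes. Ftsj2, a methyltransferase of the large ribosomal RNA, fell from 9.57 ± 0.601 to 5.08 ± 0.397 CPM (log2 fold change -0.91, SE 0.12, edgeR adjusted p = 0.000149), and Mettl17, a factor for small subunit assembly, from 9.62 ± 0.479 to 5.42 ± 0.570 CPM (-0.83, SE 0.12, edgeR adjusted p = 0.000303). Of 17 mitochondrial translation factors, 7 were lower and 1 higher (median -0.30), or 41.2% and 5.88%, beside 24.6% and 25.1% of all tested genes. Mtrf1, a release factor, fell from 8.89 ± 1.17 to 4.75 ± 0.608 CPM (-0.90, SE 0.16, edgeR adjusted p = 0.000658), and the larger fall of 2810006K23Rik on that list was 2.67-fold. Mrrf, the factor that recycles ribosomes after release, rose from 21.0 ± 1.96 to 27.8 ± 1.55 CPM (0.40, SE 0.09, edgeR adjusted p = 0.00398).

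Regulators of mitochondrial genes moved in both directions, with 4 higher and 5 lower of 16 (25% and 31.25%, beside 25.1% and 24.6% of all tested genes). Pprc1, a coactivator of the PGC-1 family, rose 4.10-fold, from 30.9 ± 3.24 to 127 ± 15.2 CPM (log2 fold change 2.04, SE 0.11, edgeR adjusted p = 1.55e-06), and Gabpb1, the partner subunit of the ETS factor GABP, rose 2.55-fold (1.35, SE 0.10, edgeR adjusted p = 4.52e-06). Ppargc1b and Ppargc1a, the other coactivators of that family, fell 1.92- and 1.88-fold (edgeR adjusted p = 0.000156 and 8.79e-05). The genes of the factors whose motifs were searched, chosen for that reason, were Nrf1 and Gabpa, which rose (0.51 and 0.61, edgeR adjusted p = 0.00023 and 3.57e-05), and Yy1, at -0.26 (edgeR adjusted p = 0.0175). Tfam, the packaging factor of mitochondrial DNA, was at 0.11 (edgeR adjusted p = 0.221). No test links these values to the members.

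**Figure D4:**
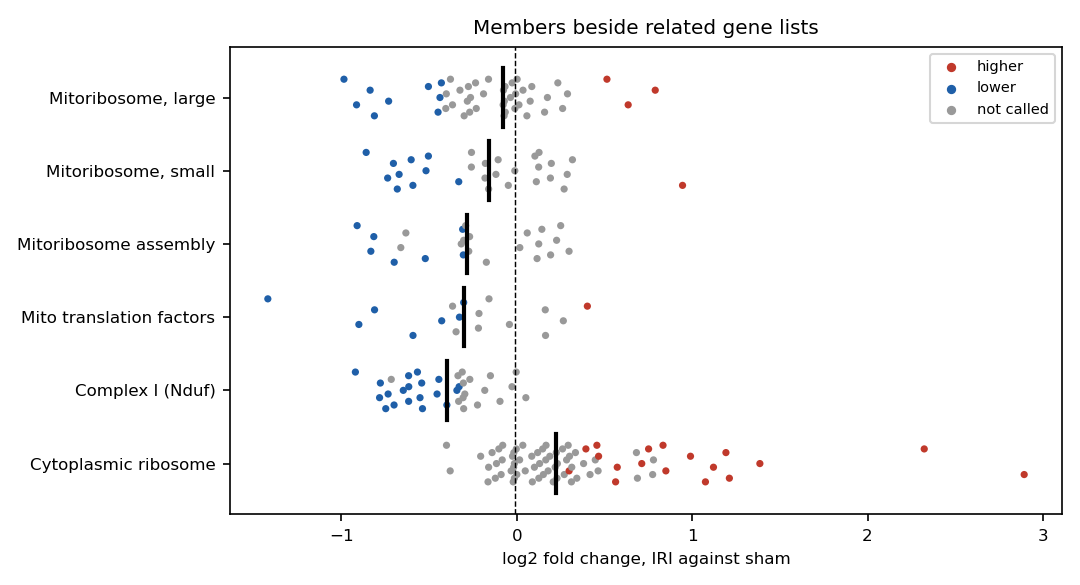
Log2 fold change, IRI against sham, of each tested gene in 6 lists (points, spread vertically only for clarity), with the median of each list as a black bar and that of all tested genes as a dashed line. Blue, red and grey points were lower, higher and not called at an edgeR adjusted p of 0.01. The medians run from -0.40 for complex I subunits to 0.22 for cytoplasmic ribosomal proteins, with both mitochondrial subunits in between.

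Nuclear genes of other large complexes are given for comparison. Of 35 tested complex I subunits, encoded by nuclear Nduf genes, 19 were lower and 0 higher (median -0.40, with 34 of 35 below 0). Lower genes made up 54.3% of that list, beside 24.6% of all tested genes. The steepest fall was in Ndufc1, to 24.9 ± 2.53 CPM from 47.2 ± 6.54 CPM (log2 fold change -0.92, SE 0.12, edgeR adjusted p = 0.000124). Of 76 tested cytoplasmic ribosomal protein genes, 18 were higher and 0 lower (median 0.22). Higher genes made up 23.7%, close to the 25.1% of all tested genes, and lower genes 0% beside 24.6%. With total counts 8 were higher and 1 lower, with a median of 0.03, beside 19.1% higher and 33.6% lower among all tested genes. Rps13 and Rpl12 had the largest rises in that list, at only 0.772 ± 0.296 and 5.68 ± 0.833 CPM after IRI. Cytoplasmic ribosomal protein genes have many processed copies in the genome, and reads without a unique alignment enter no gene. Such reads were 29.5% to 34.3% of the total in IRI libraries but 20.9% to 22.8% in sham libraries, and the part of that difference in these counts was not tested. Differences between the lists were not tested.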

How the data were processed

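RNA bound to tagged ribosomes was prepared by the authors with ribosomal RNA depletion, sequenced, aligned to mm10 with TopHat2 2.1.1 and counted per gene symbol with HTSeq, and these raw counts were deposited for each mouse without normalization. Which gene annotation, overlap mode and strand option HTSeq used is not stated in the sources. Lines that name no gene (43.3% to 52.3% after IRI, 33.3% to 37.7% in sham) were left out of library sizes. TMM scaling, filterByExpr (counts of at least 10, in total 15) and the quasi-likelihood test of edgeR 4.0.16 (R 4.3.3) were applied to the deposited counts, and p-values of the 14606 genes that passed were adjusted by Benjamini and Hochberg, with 0.01 as the threshold. CPM were divided by TMM-scaled library sizes. The voom method of limma 3.58.1 gave standard errors, and DESeq2 1.42.0, which the authors used, was an alternative. Nothing in the sources pairs the mice, and p-values measure the spread between these 8 mice only. The edgeR fit reported here and the default limma-voom and DESeq2 fits were tested on simulated data with known changes. Far fewer genes changed in that simulation than in these data, and the other alternatives were not simulated.

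The members were set by the rule on symbols, and the other lists were drawn from textbook knowledge. Both were chosen with earlier results of these data known. Values in every library are given for the 4 members per subunit and direction with the largest called change, the 3 with the highest CPM per kb in sham in each subunit, the Mrps18 paralogs, Mrps30 and Mrps36, and for other lists up to 2 genes per direction are named. Genes named beyond these were chosen after their values were seen. Positions, transcript lengths, GC content and exon overlaps were taken from GENCODE M21 on GRCm38, in which 98.5% of symbols and all 77 members were found, and promoter windows from RefSeq on GRCm38.p6. Alternatives were other scalings, filters, tools and thresholds, a replicate block, a covariate for the series of animal numbers in submitted names (a possible batch), a trend over length and GC content, other members, and fits without each library.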

Additional observations from a re-analysis of the deposited data

Results flagged for a closer look

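Among 158 groups of 4 libraries (each of the 77 members and the summed level of each subunit, in IRI and in sham), 3 held a library whose gap to the nearest other library exceeded the critical value of Dixon's test, and chance gives such a gap in about 1 of 20 groups. Mrpl15, a large subunit gene, stood at 38.9 CPM in sham replicate 2 against 33.6 to 34.2 CPM in the other sham libraries. Mrpl24, another large subunit gene, stood at 49.7 CPM in sham replicate 2 against 45.5 to 46.2 CPM. Mrpl57 stood at 16.5 CPM in sham replicate 1 against 21.4 to 21.7 CPM. None of the 3 genes was called between IRI and sham by edgeR's quasi-likelihood test.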

How the results depend on the processing

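The large subunit count of 9 lower and 3 higher genes became 20 lower with upper quartile factors, 21 lower with total counts, 15 lower and 5 higher with DESeq2, and 19 lower and 5 higher at a threshold of 0.05. The lower share thereby passed from below to above that of all tested genes, which was 30.1%, 33.6%, 27.3% and 31.7% in these fits and 24.6% in the reported one. Their median log2 fold change of -0.08 became -0.19, -0.27 and -0.17 with upper quartile factors, total counts and the trend over length and GC content subtracted. The small subunit count of 10 lower and 1 higher became 11 lower with upper quartile factors and 13 lower with total counts. These were 37.9% and 44.8%, beside 30.1% and 33.6% of all tested genes. The count became 6 lower (20.7% beside 20.8%) when the series of animal numbers entered as a covariate. It became 2 higher with DESeq2, and 11 lower (37.9% beside 31.7%) and 3 higher at a threshold of 0.05. The median of -0.16 became -0.28 with upper quartile factors and -0.35 with total counts. Upper quartile factors, total counts and the trend shifted the median of all tested genes by -0.12, -0.19 and -0.09, so that most of the change in these medians is the shift. With 1 library left out, 8 to 10 large subunit genes were lower and 3 higher (median -0.16 to -0.06), and 7 to 10 small subunit genes were lower and 1 higher (median -0.21 to -0.11). Lower genes made up 16.7% to 21.3% of large and 24.1% to 34.5% of small subunit genes, beside 21.4% to 23.5% of all tested genes. Higher genes made up 21.5% to 24.0% of all tested genes in these fits. Of the 23 called members, 14 were called in each of 17 alternatives with a test, 11 lower and 3 higher, and none of the 23 changed sign. Of 20 members not called with values above 0, 8 turned below 0 with upper quartile factors and 13 with total counts, as the shift of all genes does to values close to 0, and 0 turned the other way. Of those named in the text, Mrpl20 turned to -0.031 and -0.11, Mrpl54 to -0.059 and -0.13 and Mrps18a to -0.013 and -0.090 with upper quartile factors and total counts, Mrps18c to -0.066 with total counts, and Mrpl54 ran from -0.0090 (without sham replicate 1) to 0.10 (without sham replicate 4) with 1 library left out. The covariate for the animal number series lost Mrpl55, Mrps14, Mrps21, Mrps23 and Mrps33. IRI replicates 1 to 3 and sham replicate 1 were in the same series. IRI replicate 4 and sham replicates 2 to 4 were in the other. Series and injury are thus partly confounded, and their effects cannot be fully told apart in these mice. The cause of these 5 losses was not tested.

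The labels number the mice 1 to 4 in both groups, but same-numbered mice share only a number. Their deviations had correlations of -0.07, -0.53, -0.36 and -0.37, and 0 of 8 libraries correlated best with their own number. With the replicate block, 6 large subunit genes (12.8%) were lower and 3 higher, and 5 small subunit genes (17.2%) were lower and 1 higher (medians -0.08 and -0.16). In that fit 18.6% of all tested genes were lower and 19.6% were higher. Mrpl18, Mrpl45, Mrpl55, Mrps6, Mrps14, Mrps21, Mrps23 and Mrps33 were no longer called with the block.

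Depth limits Mrpl23, with at most 14 counts, and the rare Mrps33 and Mrps36. Exons of 32 members overlap another gene, over more than 10% of their length in 18, and such counts are uncertain without the strand.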
